A study of Sus scrofa with 6 samples.

Results

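The genes described here are those of iron, haem and myoglobin together with GLRX5 in the longissimus dorsi (LD) muscle of Laiwu pigs. They were chosen by name from a list of 9, namely GLRX5, MB, ISCU, NFS1, TFRC, FTH1, HMOX1, ALAS1 and FECH, and GLRX5 was on the list for its increase in the S-H group. Among the 31908 Ensembl genes of the deposited table, 7 of the 9 were found by their name and FTH1 was found by its position, so that 8 genes had values. MB, the myoglobin gene, had no row under that name and was not analysed here.

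LD, the long muscle of the back, was taken from 6 castrated male Laiwu pigs, a fatty breed of North China. The S-H group held the 3 pigs LW63, LW70 and LW119 with high intramuscular fat (IMF), and the S-L group held the 3 pigs LW82, LW88 and LW90 with low IMF. The groups were taken from the ends of the IMF range of a larger herd, no pig was treated, and each pig was a separate animal with 1 library depleted of ribosomal RNA. Values are FPKM, fragments counted relative to transcript length and library size, and a gene is the sum of its transcript rows. The comparison asks which of these genes differed between muscle rich and poor in fat.

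Iron enters most cells bound to transferrin through the transferrin receptor, is stored in ferritin, and is built in mitochondria into haem and iron-sulphur clusters. In cluster assembly a desulphurase gives sulphur to a scaffold protein, and the glutaredoxin GLRX5 passes the new cluster on to the proteins that use it. Muscle is rich in both products, as the respiratory chain needs them and myoglobin, the haem protein that stores oxygen and colours meat, is made in large amounts there. The last enzyme of haem synthesis itself carries an iron-sulphur cluster, so the pathways are joined.

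The libraries differed in scale. Summed FPKM ran from 638536 in LW119 to 846661 in LW82, and over the 12740 protein-coding genes tested the median log2 fold change of S-H over S-L was 0.21, with 74.1% of genes higher in S-H. Dividing by median-ratio size factors, which lay between 0.8083 and 1.1474, brought that median to 0.01. Fold changes below are on FPKM unless size factors are named, and the value after this scaling is given for most of them. The markers of muscle fibres were at high levels in every pig, from 15390 to 26842 summed FPKM over 5 genes. Adipocyte markers, of which 7 of 8 were found, summed to 1294, 724.1 and 444.4 FPKM in LW63, LW70 and LW119 against 376.1, 290.6 and 254.6 FPKM in LW82, LW88 and LW90, and 5 of the 7 passed the test as higher in S-H. The summed markers of the other cell types overlapped between the groups, but 1 fast-fibre marker, PVALB, was called lower in S-H, at 6.93, 0.268 and 2.05 FPKM in LW63, LW70 and LW119 against 15.8, 12.9 and 11.7 FPKM in LW82, LW88 and LW90. For slow fibres (8 of 8 found) the sums were 10869, 10166 and 9234 FPKM in LW63, LW70 and LW119. In LW82, LW88 and LW90 they were 9574, 6186 and 7156 FPKM. For fast fibres (5 of 8 found, without MYH1, MYH2 and MYH4) the S-H pigs were at 4540, 5965 and 4709 FPKM. The S-L pigs were at 5494, 10469 and 12936 FPKM, so both sums overlapped only through LW82 on this scale. With size factors the slow-fibre sum of LW90 also lay above that of LW119. Red cell sums (6 of 8 found) ranged from 140.0 to 605.5 FPKM and endothelial sums (6 of 6 found) from 71.9 to 116.6 FPKM. In such bulk tissue, fewer cells of a type and less RNA per cell cannot be told apart.

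A gene was called where limma on log2(FPKM + 0.1) gave p below 0.01 without adjustment and a log2 fold change of 1 or more in either direction. This is a scale that understates the change of weakly expressed genes. Among all tested protein-coding genes 173 were called, or 1.36%, of which 149 were higher and 24 lower in S-H. No gene passed a Benjamini-Hochberg adjusted p of 0.05 in limma (the lowest was 0.0762), and 1039 genes had an unadjusted p below 0.05.

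GLRX5 was far higher in S-H than in S-L, and this is the value by which it was selected on these samples, so it is described without a test. Its level was 41.8 FPKM in LW63, 44.2 FPKM in LW70 and 13.3 FPKM in LW119, against 6.98 FPKM in LW82, 5.40 FPKM in LW88 and 3.51 FPKM in LW90. The lowest S-H pig was above the highest S-L pig, and LW119 was the lowest of the S-H pigs by a wide margin. The means were 33.1 ± 17.2 FPKM (SD, n = 3) and 5.30 ± 1.74 FPKM (SD, n = 3), with a log2 fold change of 2.49 (SE 0.45) and of 2.27 after size factors. Of the S-H pigs, LW119 also had the least summed adipocyte signal, while LW63 had more of it than LW70 and slightly less GLRX5. By the IMF content that the paper lists, however, LW119 lay between LW63 and LW70, and LW70 had the least. The part of fat cells in the GLRX5 level was not tested.

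**Figure D1:**
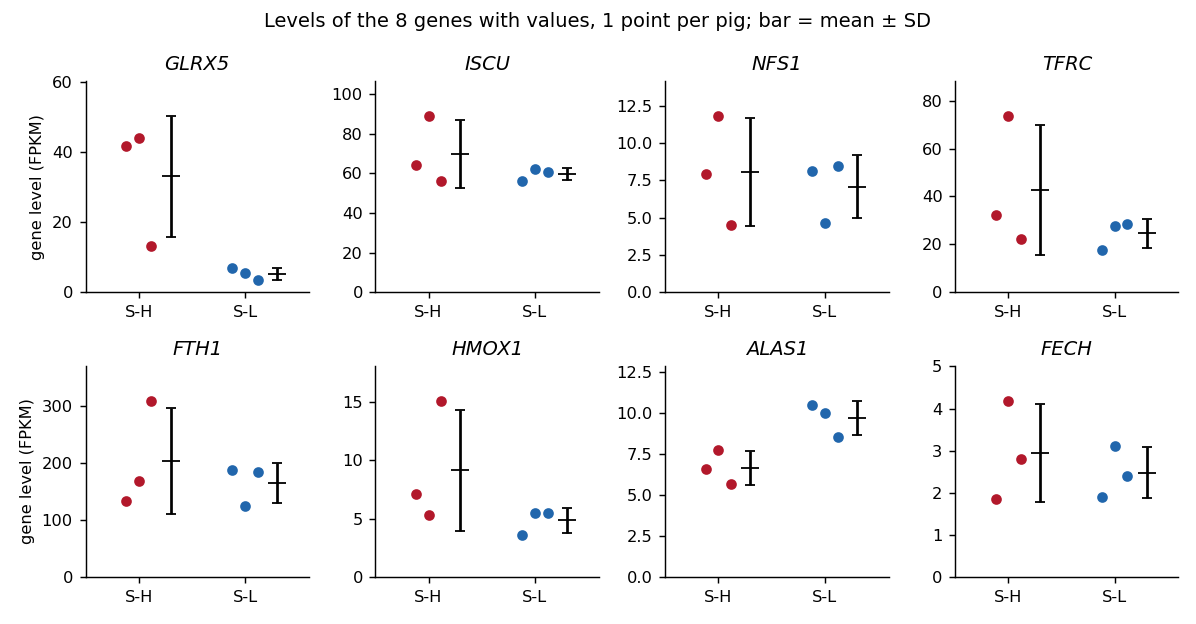
The FPKM of the 8 genes with values is plotted on a linear axis from 0, with 1 point per pig, S-H in red and S-L in blue, and the mean ± SD of 3 pigs beside them. GLRX5 lies higher in all S-H pigs and ALAS1 lower in all S-H pigs, while the groups overlap for the other 6 genes.

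The GLRX5 level is made of 2 rows that went in opposite directions. The Ensembl gene, ENSSSCG00000002496, lies at chr7:116787432-116800554 in Sscrofa11.1, and its annotated transcript GLRX5-201 spans all 13123 bases of it. RefSeq places GLRX5 at chr7:116787346-116797477 on the same assembly. The other row, TCONS_00246124, was assembled by the authors from the reads and given to the same gene. It starts at the same base as GLRX5-201 and ends at 116790935, a span of 3504 bases. The table gives spans without exons or strand, so which exons or introns this row covers is not known here.

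The assembled row held the increase. TCONS_00246124 was at 37.2 FPKM in LW63, 39.7 FPKM in LW70 and 11.6 FPKM in LW119, and it was listed at 0 in LW82, LW88 and LW90. It made up 89.1%, 89.7% and 87.1% of the gene's FPKM in the 3 S-H pigs, a share that was alike although the level in LW119 was far lower.

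The annotated transcript did not share in it. GLRX5-201 was at 4.57 FPKM in LW63, 4.56 FPKM in LW70 and 1.72 FPKM in LW119, against 6.98, 5.40 and 3.51 FPKM in LW82, LW88 and LW90, where it was the whole of the gene's level. Its S-H mean was 3.62 ± 1.65 FPKM (SD, n = 3) and its S-L mean 5.30 ± 1.74 FPKM (SD, n = 3), the groups overlapped, and the log2 fold change was -0.61 (SE 0.42) in a fit on Ensembl rows alone, a fit added after the data were seen. The sign of the difference in GLRX5 thus turns on whether the assembled row is counted. FPKM is divided by a transcript's length, so the same number of fragments gives a higher value to a shorter transcript. How fragments were divided between the rows was not tested, and a listed 0 need not mean that no such RNA was present.

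**Figure D2:**
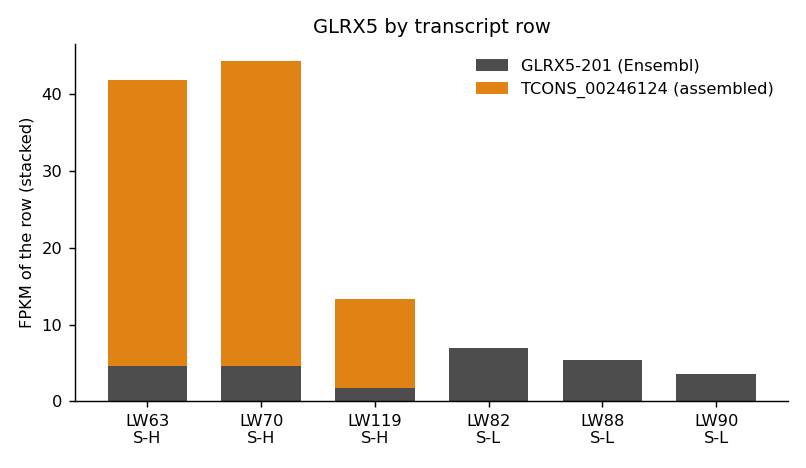
Stacked bars give the FPKM of the 2 GLRX5 rows in each pig, the annotated transcript in grey and the assembled one in orange. The orange part, from 11.6 to 39.7 FPKM, appears in the 3 S-H pigs and is at 0 in the 3 S-L pigs, while the grey part lies between 1.72 and 6.98 FPKM in all 6.

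The row is set beside the other assembled transcripts as a description only, since GLRX5 was chosen for the increase that this row holds. Of 20078 assembled rows, 140 (0.697%) were above 0 in all S-H pigs and at 0 in all S-L pigs, and 56 (0.279%) showed the opposite. Of the 140, 7 reached a mean of 1 FPKM over the S-H pigs and 1 reached 10 FPKM. That row was TCONS_00246124, with a mean of 29.5 FPKM. The next was TCONS_00297351 with 4.42 FPKM, and the highest of the 56 in S-L was TCONS_00277843 with 3.49 FPKM.

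A neighbouring gene shares part of the locus. An assembled row of ENSSSCG00000048556, TCONS_00254279, runs over chr7:116784013-116797496 and so overlaps most of GLRX5. It was at 3.24, 2.84 and 1.30 FPKM in LW63, LW70 and LW119 and at 2.18, 2.21 and 1.56 FPKM in LW82, LW88 and LW90, and the groups overlapped. Since the table gives no strand, fragments of these genes in the shared stretch cannot be assigned here.

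ISCU and NFS1, the partners of GLRX5 in cluster assembly, did not pass the test. ISCU is the scaffold on which the cluster is built. It was at 64.2 FPKM in LW63, 88.9 FPKM in LW70 and 56.0 FPKM in LW119, against 56.4, 62.3 and 60.8 FPKM in LW82, LW88 and LW90. LW70 stood above the other pigs and LW119 was the lowest, so the groups overlapped. The log2 fold change was 0.19 (SE 0.25, limma adjusted p = 0.827), and -0.03 after size factors. The transcript ISCU-203 held between 97.6% and 99.2% of the level in every pig, and the other 4 rows were minor.

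NFS1 is the cysteine desulphurase that supplies the sulphur. It was at 7.93 FPKM in LW63, 11.8 FPKM in LW70 and 4.49 FPKM in LW119, against 8.11 FPKM in LW82, 4.63 FPKM in LW88 and 8.45 FPKM in LW90. Both groups held a low pig, LW119 and LW88, and the log2 fold change was 0.13 (SE 0.38, limma adjusted p = 0.928). Its transcripts varied more than its level. NFS1-201 made up 93.1% of the gene in LW63, 94.9% in LW70 and 90.8% in LW82, but 27.9% in LW119, 27.3% in LW88 and 46.8% in LW90. The split of the pigs by this share did not follow the IMF groups. Another of its 4 rows, ENSSSCT00000052084, was above 0 in LW119 alone, at 0.999 FPKM.

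Iron uptake and storage differed more between pigs than between groups. TFRC, the transferrin receptor, was at 32.3 FPKM in LW63, 73.5 FPKM in LW70 and 22.2 FPKM in LW119, against 17.6, 27.7 and 28.4 FPKM in LW82, LW88 and LW90. A single pig, LW70, set the S-H mean of 42.7 ± 27.2 FPKM (SD, n = 3), compared with 24.6 ± 6.06 FPKM (SD, n = 3) in S-L. The log2 fold change was 0.64 (SE 0.41, limma adjusted p = 0.664), and 0.42 after size factors. On FPKM it ran from 0.16 without LW70 to 1.02 without LW119, not called in either case. TFRC-202 was the main transcript in every pig. TFRC-201 held 24.2% of the gene in LW63, 26.3% in LW82 and 22.2% in LW90, and under 1% in the other 3 pigs.

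FTH1 encodes the ferritin heavy chain, which oxidises iron as it is stored. No row carried its name, and the values are those of ENSSSCG00000014540 at chr2:9535148-9537977, which shares 96.6% of its span with the RefSeq FTH1. The ferritin genes have many near-identical copies, so reads may have been split between them and the level is uncertain. It was at 133.1 FPKM in LW63, 168.9 FPKM in LW70 and 308.8 FPKM in LW119, against 187.1, 124.4 and 183.5 FPKM in LW82, LW88 and LW90. LW119 was the highest and the other S-H pigs lay within the S-L range. The log2 fold change was 0.23 (SE 0.34, limma adjusted p = 0.855), 0.01 after size factors and -0.11 without LW119.

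HMOX1, the inducible haem oxygenase that breaks haem down and frees its iron, lies on an unplaced scaffold of the assembly. It was at 7.09 FPKM in LW63, 5.30 FPKM in LW70 and 15.1 FPKM in LW119, against 3.58, 5.48 and 5.51 FPKM in LW82, LW88 and LW90. LW119 was again the highest pig, and LW70 lay within the S-L range. The means were 9.15 ± 5.19 FPKM (SD, n = 3) and 4.85 ± 1.10 FPKM (SD, n = 3), with a log2 fold change of 0.79 (SE 0.38, limma adjusted p = 0.614) that was 0.57 after size factors. It ran from 0.36 without LW119 to 1.10 without LW70, not called in either case.

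Macrophages are rich in HMOX1 and ferritin, and their markers were read beside these values. All 8 markers were found, with summed levels of 106.5, 45.3 and 98.0 FPKM in LW63, LW70 and LW119 and of 63.2, 85.0 and 46.5 FPKM in LW82, LW88 and LW90. Their sum overlapped between the groups, and none of the 8 was called. LW119 was the highest pig for 5 of them, with MRC1 at 15.1 FPKM against at most 7.63 FPKM elsewhere and CD68 at 3.14 FPKM against at most 1.44 FPKM. For the other 3, the complement genes C1QA, C1QB and C1QC, it was not. C1QA and C1QC were highest in LW63, C1QC at 47.2 FPKM against 29.7 FPKM in LW119, and C1QB was at 10.6 FPKM in LW119 and 13.2 FPKM in LW88. CD163, the receptor by which macrophages take up haemoglobin, was at 14.8 FPKM in LW119, the highest pig, and at 3.28 FPKM in LW70, the lowest. The part of macrophages in the HMOX1 and FTH1 levels of LW119 was not tested.

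The enzymes at the ends of haem synthesis gave different pictures. ALAS1 makes the first committed step of the pathway outside red cells and is held down by haem. It was at 6.57 FPKM in LW63, 7.75 FPKM in LW70 and 5.65 FPKM in LW119, against 10.5 FPKM in LW82, 10.04 FPKM in LW88 and 8.52 FPKM in LW90. Every S-H pig was below every S-L pig, which on FPKM held for 2.06% of all 16333 annotated genes tested. The means were 6.66 ± 1.05 FPKM (SD, n = 3) and 9.69 ± 1.05 FPKM (SD, n = 3), so the difference was larger than the spread within either group.

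RefSeq lists ALAS1 as a transcribed pseudogene on this assembly, so its test comes from the fit over all annotated genes, where 1.25% were called. ALAS1 was not called, with a log2 fold change of -0.54 (SE 0.24, limma adjusted p = 0.663). The median gene of that fit was at 0.19, so relative to it ALAS1 stood at -0.73. With size factors the log2 fold change was -0.76, still without overlap, and the S-L pigs then lay close together between 10.3 and 10.5. The share of all genes with S-H below S-L after this scaling was not counted.

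FECH, the ferrochelatase that puts iron into the haem ring and carries an iron-sulphur cluster, was the lowest of the 8 genes. It was at 1.84 FPKM in LW63, 4.18 FPKM in LW70 and 2.79 FPKM in LW119, against 1.90, 3.11 and 2.40 FPKM in LW82, LW88 and LW90. The groups overlapped, with the lowest and the highest pig both in S-H, and the log2 fold change was 0.19 (SE 0.35, limma adjusted p = 0.883). FECH-202 held 47.6% of the gene in LW63 and 49.0% in LW82, and between 77.0% and 82.4% in the other 4 pigs.

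**Figure D3:**
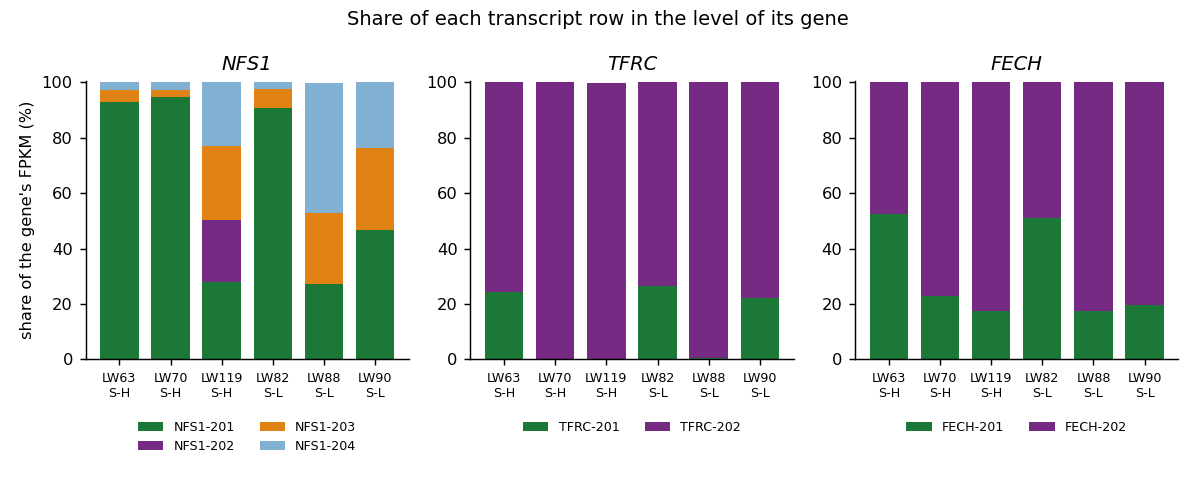
Stacked bars give, for NFS1, TFRC and FECH, the share in percent of each transcript in the summed FPKM of its gene in each pig. NFS1-201 lies above 90% in LW63, LW70 and LW82 only, and in none of the 3 genes do the shares separate the IMF groups.

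Thus none of the 7 genes with values other than GLRX5 was called by limma, beside 1.36% of protein-coding genes and 1.25% of all annotated genes tested. Of the 7, 1 had an unadjusted limma p below 0.05, ALAS1 in the fit over all annotated genes. Among the protein-coding genes, a fit without ALAS1, 1039 of 12740 were below that p, and the number in the fit with ALAS1 was not counted. FPKM being scaled by length, levels may be set side by side across genes, though the level of FTH1 is uncertain and that of GLRX5 depends on its rows. In S-L the order of the mean FPKM was FTH1, ISCU, TFRC, ALAS1, NFS1, GLRX5, HMOX1 and FECH, and NFS1, GLRX5 and HMOX1 overlapped in it. In S-H GLRX5 stood between TFRC, with which it overlapped, and HMOX1, with LW119 at 13.3 FPKM below the 15.1 FPKM of HMOX1 in the same pig. From the lowest to the highest pig, GLRX5 varied 12.6-fold, a range that holds the increase by which it was chosen. Its annotated transcript alone ran from 1.72 to 6.98 FPKM. HMOX1 varied 4.21-fold, TFRC 4.18-fold, NFS1 2.62-fold, FTH1 2.48-fold, FECH 2.26-fold, ALAS1 1.86-fold and ISCU 1.59-fold.

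The wider pathway was read from 4 lists of 100 genes in all, without the 9 above. Of these, 91 were found and 82 were tested, 1 was called (beside 1.36% of all tested genes), and the median log2 fold change was 0.29 beside 0.21 for all tested genes. Of the 82, 74 were higher in S-H (90.2%), beside 74.1% of all tested genes. With size factors 53 of 82 were higher, beside 6468 of all 12740, and their median was 0.08. The S-H pigs lay above the S-L pigs for 11 of the 82 (13.4%, beside 13.1% of all tested genes), and below them for none (beside 1.70%). With size factors the S-H pigs lay above for 3 of the 82 (3.66%, beside 5.96%).

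Of 25 tested genes of iron-sulphur cluster assembly, 24 were higher in S-H on FPKM and 15 with size factors. The median log2 fold change was 0.29, or 0.08 with size factors, and 1 gene was called. The 3 most abundant were HSPA9, the mitochondrial chaperone that frees the cluster from its scaffold, ISCA1, a carrier of later steps that was matched by position, and GLRX3, the cytosolic relative of GLRX5. HSPA9 (log2 fold change 0.19, or -0.03 with size factors) and ISCA1 (0.13, or -0.09) overlapped between the groups. GLRX3 was at 53.5, 68.1 and 50.4 FPKM in LW63, LW70 and LW119 and at 40.2, 43.3 and 41.1 FPKM in LW82, LW88 and LW90. Its groups did not overlap on FPKM, but it was not called (log2 fold change 0.45, SE 0.23, limma adjusted p = 0.619). With size factors its log2 fold change was 0.23 and its groups overlapped. The S-H pigs were above the S-L pigs for 7 of the 25 genes (28.0%, beside 13.1%), and for 3 of them (12.0%, beside 5.96%) with size factors.

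The gene called was LYRM7, which helps to insert the iron-sulphur protein of respiratory complex III. It was at 3.43 FPKM in LW63, 5.37 FPKM in LW70 and 3.69 FPKM in LW119, against 1.003 FPKM in LW82, 0.409 FPKM in LW88 and 2.23 FPKM in LW90. The groups did not overlap, and the log2 fold change was 1.94 (SE 0.49, limma adjusted p = 0.535). As with GLRX5, 1 transcript carried the difference. LYRM7-204 was at 3.43, 4.42 and 3.11 FPKM in the S-H pigs, was listed at 0 in LW82 and LW88, and was at 1.85 FPKM in LW90. The call was lost with size factors (log2 fold change 1.72), without LW70 (1.74), and when LYRM7-204, the row with the highest mean, stood for the gene. In that last setting the log2 fold change was 3.79, a value that depends on the pseudocount since the row is listed at 0 in a pair of S-L pigs.

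Of 27 tested genes of haem synthesis, transport and breakdown, 24 were higher in S-H on FPKM and 20 with size factors. None was called by limma (1 had an unadjusted p below 0.05, beside 1039 of all 12740 tested genes), and the median log2 fold change was 0.33, or 0.12 with size factors. HMOX2, the constitutive haem oxygenase, CLPX, a mitochondrial unfoldase that acts on the enzyme made from ALAS1, and BACH1, the haem-sensing repressor of HMOX1, were the most abundant. Their log2 fold changes were -0.12, -0.08 and -0.39, or -0.34, -0.30 and -0.61 with size factors. These were opposite in sign to most of the list, and their groups overlapped. BACH1 was at 19.8, 11.0 and 21.6 FPKM in LW63, LW70 and LW119 and at 17.2, 27.7 and 22.6 FPKM in LW82, LW88 and LW90 (SE 0.31, limma adjusted p = 0.714).

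Of 24 tested genes of iron uptake, storage, export and sensing, 20 were higher in S-H on FPKM and 13 with size factors. None was called by limma (1 had an unadjusted p below 0.05, beside 1039 of all 12740 tested genes), and the median log2 fold change was 0.25, or 0.07 with size factors. FTL, the ferritin light chain, was at 475.6, 310.8 and 421.0 FPKM in LW63, LW70 and LW119 and at 347.6, 731.6 and 221.4 FPKM in LW82, LW88 and LW90. The S-L pigs held both the highest and the lowest value, and LW119, highest for FTH1, was not highest for FTL. PCBP2, an iron chaperone, overlapped between the groups, with a log2 fold change of -0.14, or -0.36 with size factors.

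Of the globins and their scavengers 6 genes were tested, and all 6 were higher in S-H on FPKM. None was called by limma, and 0 had an unadjusted p below 0.05, beside 1039 of all 12740 tested genes. Their median log2 fold change was 0.40, and 0.18 with size factors, where 5 of 6 were higher. HBB, the beta chain of haemoglobin and so a measure of blood in the sample, was at 600.4, 363.7 and 330.1 FPKM in LW63, LW70 and LW119 and at 293.8, 415.6 and 136.9 FPKM in LW82, LW88 and LW90. The groups overlapped (log2 fold change 0.70, SE 0.42, limma adjusted p = 0.651, and 0.48 with size factors). CYGB, cytoglobin, matched by position, had a log2 fold change of 0.52 and CD163 of 0.27, or 0.31 and 0.05 with size factors. Reads of haemoglobin genes may be shared with their copies.

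**Figure D4:**
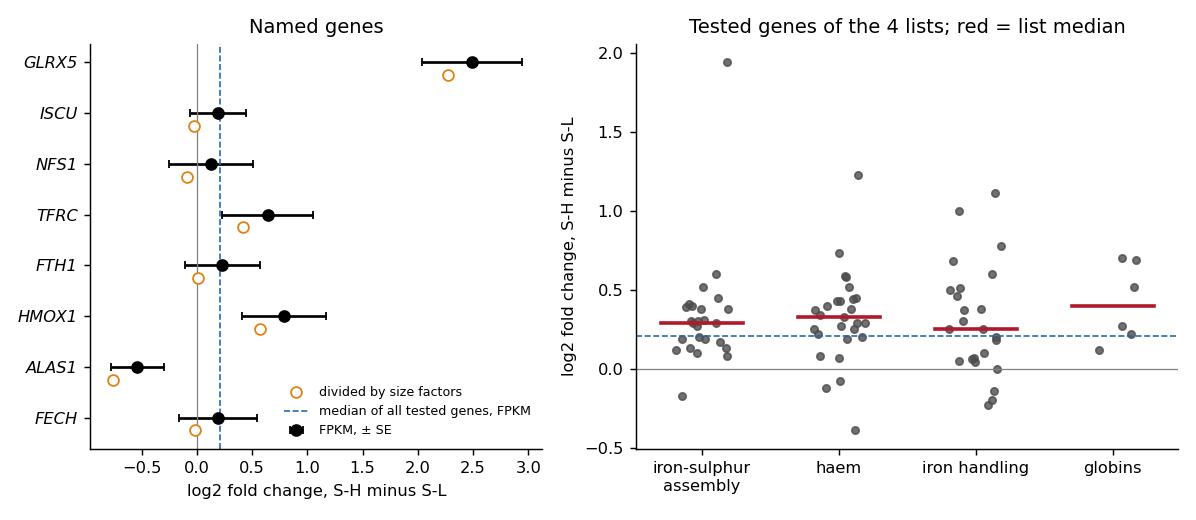
The left panel gives the log2 fold change of S-H over S-L for the 8 genes, black with its SE on FPKM and orange after size factors, and the right panel gives it on FPKM for the 82 tested genes of the 4 lists, with the list medians as red lines. The dashed blue line is the median of all tested genes, 0.21, and GLRX5 at 2.49 and LYRM7 at 1.94 lie farthest from it.

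Lastly, genes with a pattern like that of GLRX5 were sought over the 6 pigs. Among 9762 tested genes with a symbol and a mean of at least 1 FPKM, the highest Pearson r on the log2 scale was found for C20orf27 (0.995), S100PBP (0.990), TEAD2 (0.989), PCBP4 (0.987) and MIEF2 (0.984). For each of the 5 the S-H pigs lay above the S-L pigs on FPKM, as they did for 13.1% of all tested genes. The choice of genes by their likeness to GLRX5 favoured this. With size factors that share was 5.96%, and of the 5 only C20orf27 was still without overlap. S100PBP was at 7.77, 8.49 and 6.36 FPKM in LW63, LW70 and LW119 and at 5.70, 5.59 and 4.96 FPKM in LW82, LW88 and LW90. An r above 0.9 was reached by 246 genes (2.52%), and the 6 pigs fall into separate groups for GLRX5, so these values are a description. Against the annotated transcript GLRX5-201 alone, the r of the same 5 genes lay between -0.123 and 0.118.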

How the data were processed

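Total RNA of the LD muscle of 6 pigs was sequenced from strand-specific libraries depleted of ribosomal RNA. Per the methods, the authors' pipeline was HISAT2 alignment of filtered reads to the Sscrofa11.1 assembly, followed by StringTie. They deposited FPKM values for 83119 transcript rows, 20078 of them assembled, and the unit was checked from the values. The 21104 Ensembl rows without a symbol are in TPM and were multiplied by 1 factor per pig, from 0.6385 to 0.8467, to give FPKM. No read counts entered, so the depth of a single value is unknown, and precision is given by the spread of 3 pigs.

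Rows sharing a gene identifier were summed. Protein-coding genes were taken from RefSeq on the same assembly by symbol, else by a reciprocal overlap of at least 50%. Genes with a mean of at least 0.1 FPKM were tested in limma 3.58.1 (R 4.3.3) with a variance trend on log2(FPKM + 0.1), 3 pigs against 3, which was tested on simulated data. The thresholds are those of the study. All other steps used Python 3.11.15 with pandas 2.3.3.

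The 9 genes, the lists and the markers were chosen with earlier results of these data known, and no p-value is given for GLRX5. Named were the 9 genes, the 3 most abundant and every called gene of each list, and the 5 genes most like GLRX5. 1 item that this rule names is not reported here. LYRM7 transcripts, single macrophage markers and neighbouring rows of GLRX5 were looked at after their values were seen. The alternatives tried were pseudocounts of 1 and 0.01, minimum means of none and 1 FPKM, size factors, TPM, the row with the highest mean, all annotated genes, the values as deposited and each pig left out. The sum of Ensembl rows only was added after seeing the data. Sequences were not used here.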

Additional observations from a re-analysis of the deposited data

How the results depend on the processing

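GLRX5 kept its direction in all settings but 1, with log2 fold changes between 2.19 and 3.05, and turned to -0.61 when only Ensembl rows were summed, a setting chosen after seeing the data. No GLRX5 value is given for the row with the highest mean, where it would depend on the pseudocount since that row is listed at 0 in S-L. None of the other 7 genes with values was called in any setting. With size factors the log2 fold change of ISCU became -0.03, of NFS1 -0.09 and of FECH -0.02, which follows the shift of the median gene. Leaving out 1 pig, NFS1 ranged from -0.19 (without LW70) to 0.49 (without LW119) and was -0.14 without LW88, FTH1 from -0.11 (without LW119) to 0.49 (without LW63), and FECH from -0.09 (without LW70) to 0.48 (without LW63). The cause was not tested. The number of called list genes was 0 with size factors and from 1 to 3 when a pig was left out. It was 3 without LW82, with SLC40A1 and STEAP4 beside LYRM7. Without LW70 the 1 gene called was FLVCR2, and with the row of the highest mean it was HBM. Over all tested genes 173 were called, against 77 with a pseudocount of 1, 260 in TPM, 261 without LW82 and 86 without LW90. No paired analysis was possible because S-H and S-L hold different animals, and the numbers within a group only follow the order of the samples. With 3 pigs a group, the TFRC and HMOX1 differences were not called, and leaving out 1 pig moved them from 0.16 (without LW70) to 1.02 (without LW119) and from 0.36 (without LW119) to 1.10 (without LW70).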
